A study of Solanum lycopersicum x Solanum pennellii and Solanum lycopersicum and Solanum pennellii with 305 samples.

Results

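The 100 genes described here are those with the highest mean level in the root tips of M82, the cultivated tomato (Solanum lycopersicum) of this study. They were chosen among the 29633 genes of the count table by the reads of a gene per 1000000 reads counted in the library (CPM), averaged over the 4 M82 libraries. The members were thus chosen by their M82 values. Those values are given as a description only, and tests are confined to libraries that the choice did not use. PENN is the wild relative S. pennellii, accession LA0716, with 3 libraries. The 75 introgression lines (ILs) carry a segment of S. pennellii, the donor parent, in the background of M82, the recurrent parent, with 4 libraries each except IL7-5 and IL9-1-2, which have 3. All 305 libraries of the 77 genotypes were made from pools of 7 to 14 root tips, each 1 cm long, of seedlings 3 to 4 days after germination. Each line is a single inbred stock, and replicates are pools of seedlings that shared a plating time across genotypes.

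A small number of transcripts takes a large part of the reads of any RNA library, and in growing plant tissue these commonly include transcripts for the protein synthesis machinery, the cytoskeleton and chromatin. Which of these the 100 genes are is not given here, because the files give identifiers without names. The gene model identifier does give the chromosome, in the digits before the letter g. A share of reads is a relative measure, and a longer transcript collects more reads, so an order by CPM is not an order by number of molecules. In an IL, a gene inside the introgression is transcribed from the S. pennellii allele, while genes on the other chromosomes are transcribed from the M82 allele.

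The libraries of PENN held 4174630 to 5659441 counted reads, those of the ILs 683199 to 11338423 (median 4286682) and those of M82 3078847 to 4835467. At this depth every member had at least 2195 reads in each M82 library, for which counting error alone gives a coefficient of variation of at most 2.13%.

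The 100 members took 11.34%, 11.83% and 11.31% of the reads in the 3 PENN libraries, against 14.4%, 13.9%, 15.2% and 14.3% in the 4 M82 libraries. PENN averaged 11.5 ± 0.29% and M82 14.4 ± 0.56% (SD, n = 3 and 4 libraries). All PENN libraries lay below all M82 libraries, and the 95% binomial (Wilson) interval of any one of these shares was at most ± 0.039 percentage points, which covers counting error only. Within the same replicate number, the difference of PENN from M82 was -3.03, -3.39 and -3.02 percentage points in replicates 1, 3 and 4. A set chosen for being high in M82 is favoured in M82, so this difference is not tested.

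The ILs were close to M82. Their mean shares ran from 13.1% in IL12-3 to 15.1% in IL2-5, with a median of 14.4% over the 75 lines. PENN was the lowest of the 77 genotypes, and IL12-3 (13.1 ± 0.98%, SD, n = 4) and IL9-3-1 (13.4 ± 0.19%, SD, n = 4) followed it. The low mean of IL12-3 came in part from its replicate 2, at 11.7%, while its other libraries held 13.4%, 14.0% and 13.5%. Over the ILs the share also moved with the replicate number, with means of 14.1%, 14.2%, 14.7% and 14.5% in replicates 1 to 4.

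**Figure D1:**
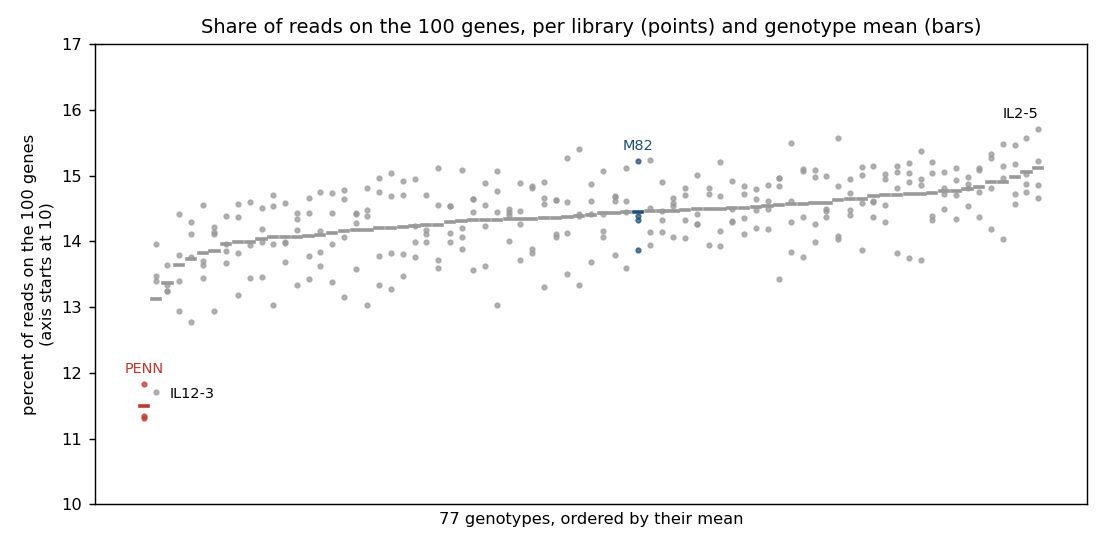
Percent of a library's reads on the 100 genes, for each library (points) and as the mean of each genotype (bars), with the 77 genotypes ordered by their mean and an axis that starts at 10%. The 3 PENN libraries lie between 11.31% and 11.83%, and 1 library of IL12-3, at 11.7%, is the only IL library in that range.

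The same genes were not the top of the list in PENN. Of the 100 members, 69 were also among the 100 genes with the highest mean CPM in PENN, 17 stood beyond rank 100 and up to rank 200, 7 beyond rank 200 and up to rank 1000 and 7 below rank 1000. In the ILs between 75 and 95 of the members (median 90) were within the line's own highest 100. A choice made in each parent itself narrowed the gap. The 100 genes highest in PENN took 13.0% of its reads, against 14.4% for the 100 genes highest in M82, and 50% of all reads were reached after 1437 genes in PENN and 1337 in M82. Per library, the share of the library's own 100 highest genes averaged 13.0 ± 0.47% in PENN (SD, n = 3), from 13.8% to 15.7% in the ILs and 14.5 ± 0.57% in M82 (SD, n = 4).

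Of the 31 genes that were in the highest 100 of PENN and no members, 21 stood within the first 200 ranks of M82, and 3 stood below rank 1000. The gene of this kind with the highest level in PENN was Solyc08g014000.2.1, with 2041, 2375 and 1744 CPM in PENN libraries and 326, 247, 267 and 349 CPM in M82 libraries. These genes were picked for being high in PENN, and their values are a description.

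Within the members, reads were concentrated at the top. In M82 the first 10 genes held 3.90% of all reads and 27.0% of the reads of the members, and the first 50 held 68.4% of the reads of the members. The most abundant was Solyc09g010630.2.1, with 4255, 4907 and 4725 CPM in PENN libraries and 7797, 8800, 8297 and 8473 CPM in M82 libraries. It ranked first in both parents, although no PENN library reached the lowest M82 library. Solyc08g006890.2.1 was second in M82, with 3268, 4031 and 3870 CPM in PENN libraries and 5593, 6440, 6731 and 6335 CPM in M82 libraries. Solyc07g065840.2.1 was the third, with 2189, 2046 and 1902 CPM in PENN libraries and 4302, 4585, 4090 and 4393 CPM in M82 libraries. All PENN libraries of both genes also lay below all M82 libraries. Over the lines with an introgression on another chromosome, Solyc09g010630.2.1 ranged from 4851 CPM in IL4-4 to 9551 CPM in IL11-4, Solyc08g006890.2.1 from 5040 to 7263 CPM and Solyc07g065840.2.1 from 3539 to 5188 CPM.

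The genes at ranks 4 and 5 did not share this pattern. Solyc05g014470.2.1, the first of them, had 4074, 3804 and 3611 CPM in PENN libraries and 3615, 3151, 3872 and 3026 CPM in M82 libraries, and Solyc10g081510.1.1, the second, had 3408, 3623 and 3803 CPM in PENN libraries and 3071, 2484, 4195 and 3128 CPM in M82 libraries. In both the libraries of the parents overlapped. Solyc05g054580.2.1, at rank 10, averaged 2411 ± 88.9 CPM in PENN and 2386 ± 124 CPM in M82 (SD, n = 3 and 4) and overlapped too. Solyc08g081190.2.1 and Solyc01g099770.2.1, at ranks 6 and 7, averaged 1367 and 1368 CPM in PENN and 3177 and 2887 CPM in M82, with no overlap. Solyc04g077020.2.1 and Solyc01g104590.2.1, at ranks 11 and 12, averaged 1492 and 1834 CPM in PENN and 2351 and 2245 CPM in M82, again with no overlap. Across the 100 members the coefficient of variation of the 4 M82 libraries had a median of 9.44%, and it ran from 0.753% to 34.0%.

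At the lower end the choice was close. Solyc03g119040.2.1 and Solyc04g074300.2.1, the members at ranks 99 and 100, averaged 793 and 792 CPM in M82, and Solyc04g081570.2.1 and Solyc01g100570.2.1, just outside the choice, averaged 788 and 787 CPM. When each M82 library was left out of the choice in turn, between 96 and 98 of the members were chosen again, and the new set took 14.3%, 13.8%, 15.2% and 14.3% of the library that had been left out.

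**Figure D2:**
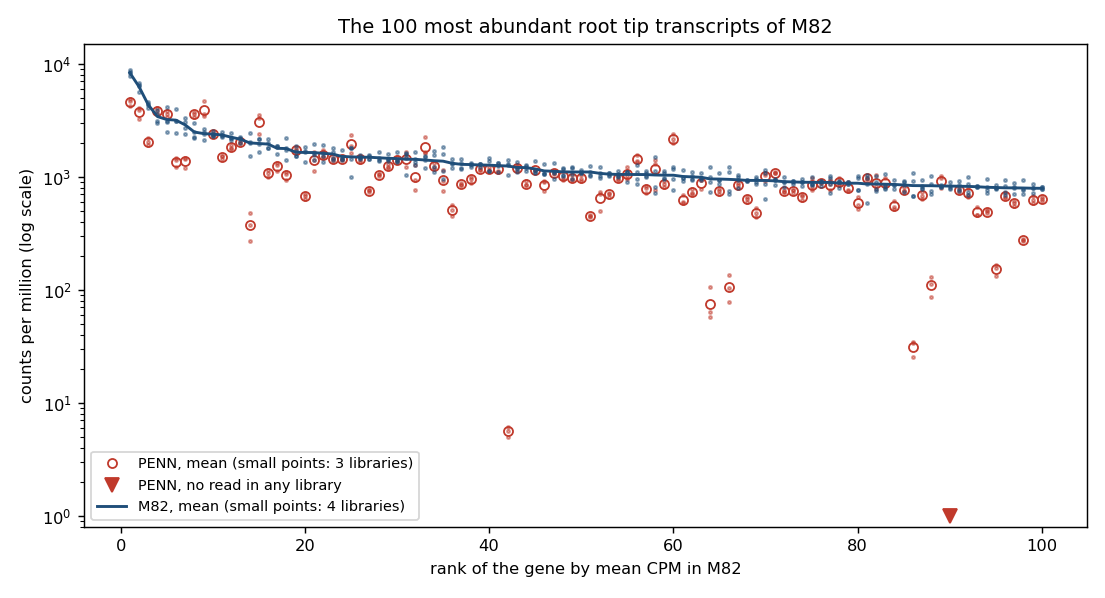
CPM (log scale) of the 100 genes by their rank in M82, with the 3 PENN libraries and their mean in red and the 4 M82 libraries and their mean in blue. Most PENN means lie close to the M82 line or somewhat below it, the 7 genes below rank 1000 in PENN lie far below it, and the triangle marks Solyc03g119360.2.1, which had no read in any PENN library and is drawn at the foot of the axis.

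The members lay on all 12 chromosomes, with 13 on chromosome 6, 12 on chromosome 9 and 12 on chromosome 1, and 5 on chromosome 4. Few were neighbours. Solyc02g070310.2.1 and Solyc02g070340.2.1 were next to each other in the table, 2 genes lay between Solyc08g006860.2.1 and Solyc08g006890.2.1, and 4 between Solyc12g088670.1.1 and Solyc12g088720.1.1. In PENN, Solyc02g070310.2.1 and Solyc02g070340.2.1 averaged 865 and 736 CPM, and Solyc12g088670.1.1 and Solyc12g088720.1.1 averaged 1067 and 1240 CPM. The pair on chromosome 8 was far apart, with 31.4 CPM for Solyc08g006860.2.1 and 3723 CPM for Solyc08g006890.2.1.

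Departures of PENN were tested against the ILs, because neither the PENN nor the IL libraries had been used for the choice. For each gene the reference was the ILs whose introgression lay on another chromosome, 65 to 71 lines. Their libraries were pooled, and the error of the test came from the spread within genotypes, not among those lines. By edgeR's quasi-likelihood test and Benjamini-Hochberg adjusted p-values, 50 of the 100 members differed at an adjusted p of at most 0.01, the threshold for every call below, against 45.6% of the 19591 genes tested and 35.2% of the 900 genes that came next in M82, down to rank 1000. Of the 50, 44 were lower in PENN (background 21.3%) and 6 were higher (background 24.2%). The choice by the M82 background, which the ILs share, favours members that are lower in PENN, so the direction is not read as a property of abundant genes. Among the 900 genes next in abundance, 26.9% were lower and 8.33% were higher in PENN. A log2 fold change of at least 1 in size was reached by 15 of the members called, all lower, against 22.4% of all genes tested. The median log2 fold change of PENN over the ILs was -0.26 for the members, -0.12 for these 900 genes and -0.02 for all genes tested.

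The calls held in most settings. Under 10 other ways of scaling, filtering, blocking or leaving out a replicate, all 50 kept their direction and 38 were called every time. Without 1 PENN library in turn, between 43 and 46 members were called, beside 37.3% to 38.5% of all genes tested. All of these members were among the 50. As a description, because M82 chose the members, the PENN libraries lay wholly below the M82 libraries for 51 members (background 16.9% of the genes with a read in any library) and wholly above for 7 (background 19.8%).

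The largest departure was that of Solyc03g119360.2.1, at rank 90 in M82. It had 0 of 14770902 reads in PENN, a result that allows up to 0.203 CPM (3 reads over the group), against means of 722 to 985 CPM in the 71 lines with an introgression on another chromosome. PENN was at least 4196-fold lower than the mean of those lines. In M82 it had 902, 830, 797 and 787 CPM. Among the 4 lines of chromosome 3 it was nearly absent from IL3-5, with 9 reads in 4 libraries and 0.494, 0.284, 0.849 and 0.385 CPM per library, while IL3-1, IL3-2 and IL3-4 averaged 922, 837 and 859 CPM. The log2 fold change of IL3-5 over the lines of other chromosomes was -10.81 (standard error, SE, 0.43, adjusted p = 5.97e-120, edgeR's quasi-likelihood test), and the other chromosome 3 lines were not called.

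Solyc09g007900.2.1, at rank 42, had 5.03, 6.08 and 5.65 CPM in PENN libraries, against means of 653 to 2024 CPM in the 66 lines of other chromosomes (log2 fold change -7.65, SE 0.27, adjusted p = 3.97e-66, edgeR's quasi-likelihood test). In M82 it had 1274, 1399, 1030 and 1291 CPM. Of the 9 lines of chromosome 9, IL9-1 averaged 50.4 ± 12.6 CPM (SD, n = 4), IL9-1-2 averaged 57.7 ± 18.6 CPM (SD, n = 3) and IL9-1-3 averaged 39.8 ± 6.64 CPM (SD, n = 4), and the remaining 6 averaged from 784 to 1536 CPM. These 3 lines thus stood far below all other lines, and above PENN. No library of them overlapped a library of PENN.

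Solyc09g007760.2.1, on the same chromosome and at rank 66, showed a smaller difference in the same lines. It had 136, 104 and 78.6 CPM in PENN libraries, against line means of 559 to 1323 CPM (log2 fold change -2.97, SE 0.19). IL9-1, IL9-1-2 and IL9-1-3 averaged 310, 222 and 260 CPM. Their log2 fold changes over the lines of other chromosomes were -1.41, -1.89 and -1.58, each called.

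Solyc08g006860.2.1, at rank 86, had 34.7, 25.5 and 33.9 CPM in PENN libraries and 1074, 672, 919 and 683 CPM in M82 libraries. IL8-1, IL8-1-1 and IL8-1-5 averaged 92.7 ± 33.8, 80.5 ± 9.83 and 87.9 ± 14.3 CPM (SD, n = 4 each), while the other 4 lines of chromosome 8 averaged from 726 to 1236 CPM. The log2 fold change of IL8-1-1 over the lines of other chromosomes was -3.35 (SE 0.17, adjusted p = 6.53e-34, edgeR's quasi-likelihood test). IL8-3, on the same chromosome, was higher by 0.59 (adjusted p = 0.0061, same test).

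**Figure D3:**
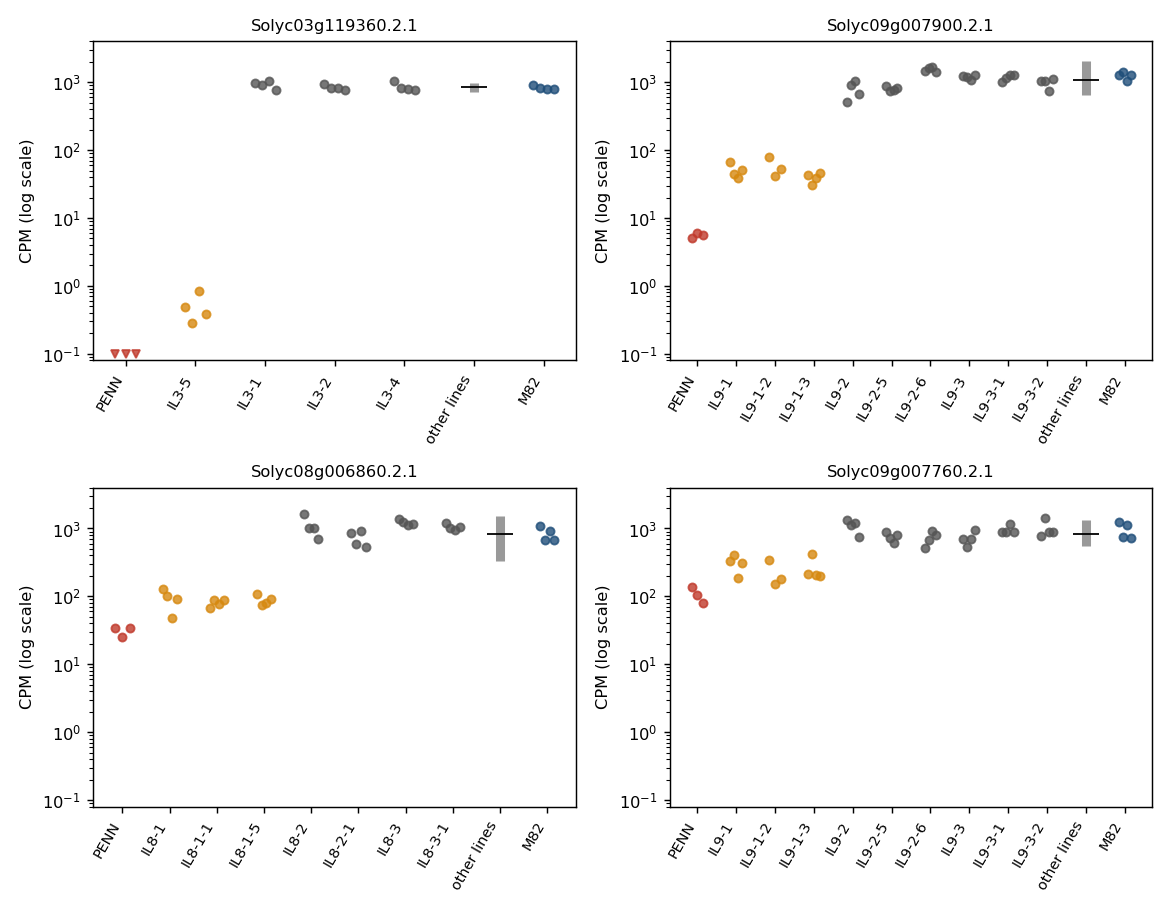
CPM (log scale) of 4 members in the libraries of PENN, of each IL of the gene's chromosome (orange where the line is far below the rest, dark grey elsewhere) and of M82, with the range and median of the line means of other chromosomes as a grey bar with a black mark. For Solyc09g007900.2.1 the orange lines average 39.8 to 57.7 CPM, between PENN and the other lines, and triangles mark a level of 0 CPM.

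A further 3 members reached a log2 fold change of -1 or below in a line of their own chromosome. Solyc01g097760.2.1 averaged 196 ± 29.3 CPM in IL1-3 (SD, n = 4), with 785 to 849 CPM in the other lines of chromosome 1, and 167, 134 and 155 CPM in PENN libraries. Solyc06g009970.2.1 averaged 499 ± 41.2 CPM in IL6-1 (SD, n = 4), and 453, 567 and 509 CPM in PENN libraries, against a median of 1353 CPM over the lines of other chromosomes. Solyc09g092380.2.1 averaged 387 CPM in IL9-3-1 and 515 CPM in IL9-3, and 449, 461 and 439 CPM in PENN libraries, against a median of 1067 CPM. In the last 2 genes the line reached the level of PENN.

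In all, 14 combinations of a member and a line of its own chromosome were called with a log2 fold change of at least 1 in size. They came from 7 members and were all lower, and each was called under all 6 other settings and without each replicate number in turn. Choosing genes that are high in M82 favours lower values for the S. pennellii allele, so this direction is not read. The share of all genes that reached this size in a line of their own chromosome is not given. The PENN and line comparisons share the lines of other chromosomes as their reference, and each level above is given for its own sake. The authors mapped reads of PENN and of an introgression to S. pennellii sequence and all other reads to M82 sequence. A difference in mapping and a difference in transcript level therefore cannot be told apart for a gene inside a segment. The same holds for every gene in the comparisons of PENN with the lines or with M82.

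Not every low member of PENN was low in a line of its own chromosome. Of the 15 members lower in PENN by a log2 fold change of at least 1 in size, 6 were called lower in no line of their chromosome. The same share over all genes is not given, nor whether the segments of those lines hold the gene. Solyc08g008050.2.1, at rank 64, had 106, 57.1 and 63.1 CPM in PENN libraries and 1213, 740, 988 and 895 CPM in M82 libraries, and the 7 lines of chromosome 8 averaged from 616 to 941 CPM. Solyc05g015300.2.1, at rank 88, had 130, 112 and 86.9 CPM in PENN libraries, against means of 672 to 933 CPM in the 5 lines of chromosome 5. In lines of other chromosomes the first gene was called lower in 2 and higher in 1, and the second lower in 1 and higher in 3. Their lowest line means were 530 and 469 CPM, both in IL12-3, so in neither gene did a line come near PENN.

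Members that were higher in PENN changed less. The choice by M82 levels favours large falls over large rises, so this is a description of the set only. Solyc11g011330.1.1, at rank 60 in M82 and rank 9 in PENN, had 2380, 2153 and 2000 CPM in PENN libraries and 1178, 773, 1219 and 967 CPM in M82 libraries. Its log2 fold change over the lines of other chromosomes was 0.92 (SE 0.15, adjusted p = 2.92e-10, edgeR's quasi-likelihood test). It was also higher in 2 of the 5 lines of chromosome 11. IL11-1 averaged 1700 ± 383 CPM and IL11-2 averaged 1647 ± 416 CPM (SD, n = 4 each), while IL11-3, IL11-4 and IL11-4-1 averaged from 1074 to 1255 CPM.

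Solyc05g010420.1.1, at rank 9 in M82 and rank 2 in PENN, had 3440, 4740 and 3635 CPM in PENN libraries, against a median of 2326 CPM in the lines of other chromosomes (log2 fold change 0.70, SE 0.10, adjusted p = 3.13e-12, edgeR's quasi-likelihood test). None of the 5 lines of chromosome 5 was called for this gene. It was called in 9 lines of other chromosomes, higher in 6 and lower in 3. The highest of these was IL9-3-1, at 3469 ± 287 CPM (SD, n = 4), and the lowest IL9-1-3, at 1716 ± 206 CPM (SD, n = 4).

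Each line was then compared with the lines whose introgression lay on another chromosome. Of the 7500 combinations of a member and a line, 364 were called (4.85%, background 3.71%), 124 of them higher in the line (background 1.84%) and 240 lower (background 1.87%). Members on the chromosome of the introgression were called in 70 of 629 combinations (11.13%, background 10.8%), 19 higher and 51 lower. This direction is also favoured by the choice in M82 and is not read. Members on other chromosomes were called in 294 of 6871 combinations (4.28%, background 3.07%), 105 higher and 189 lower. Among the 900 genes next in abundance, 4.67% of combinations were called, 9.84% on the chromosome of the introgression and 4.21% elsewhere.

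The calls were unevenly spread over the lines. No member was called in 27 lines and 1 to 5 were called in 33 lines. In 7 lines 20 or more were called, and these lines held 243 of the 364 combinations (66.8%). The calls over all genes were uneven too, from 0.316% of the genes tested in IL7-5-P5 to 35.2% in IL4-4. The matching shares of the calls over all genes, for these sets of lines, are not given. Backgrounds of single lines below are over all genes tested, most of them less abundant than the members. IL12-3 had 52 members called (background 29.9%), 50 of them lower (background 15.9%), and only 3 lay on chromosome 12. IL4-4 had 39 (background 35.2%), IL6-2 had 37 (background 17.9%), IL9-3-1 had 35 (background 8.91%), IL6-1 had 33 (background 2380 of 19591 genes), IL2-5 had 25 (background 14.7%) and IL3-5 had 22 (background 12.0%). IL2-5 was the line among these with most members higher, 20 of 25 (background 7.29% of genes higher), and it also had the highest summed share of reads. In IL9-3-1, 33 of the 35 were lower (background 4.96% of genes lower), and the median log2 fold change over the 100 members was -0.24. In IL12-3 it was -0.30. Over all lines, scaling by column totals alone gave 142 combinations higher and 206 lower, beside the 124 and 240 above. The scaling factors were 1.06 to 1.09 in the libraries of IL9-3-1 and 1.04 to 1.17 in those of IL12-3. The part of the scaling in these directions was not tested.

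**Figure D4:**
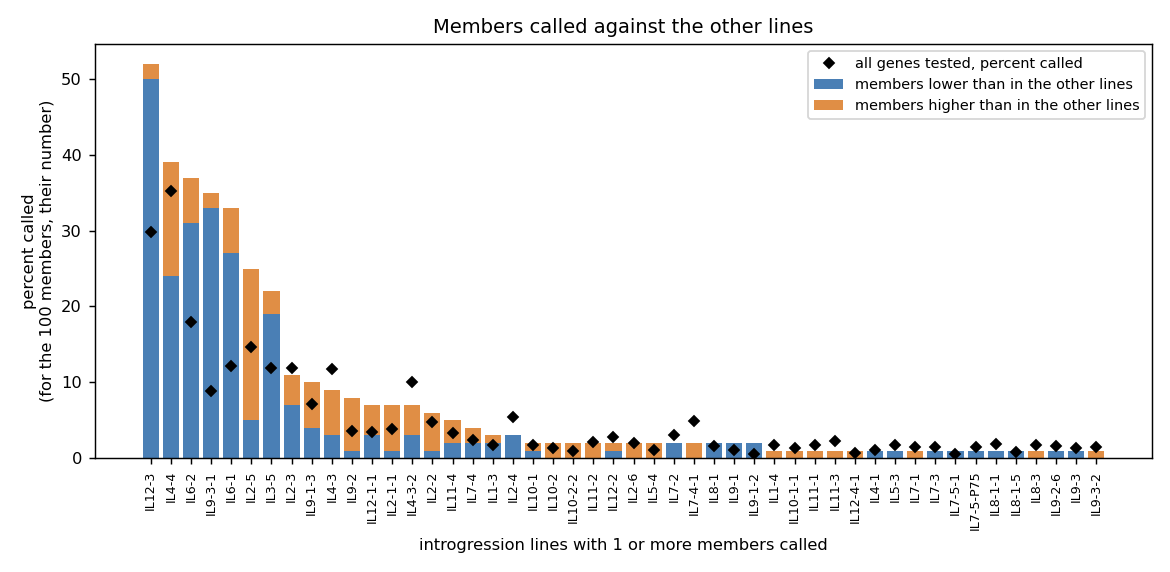
Number of the 100 members called lower (blue) or higher (orange) in each of the 48 lines with 1 or more calls against the lines of other chromosomes, with the percent of all genes tested that were called in the same line (diamonds). In IL9-3-1, 35 members were called beside 8.91% of all genes.

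Single libraries carried a good part of these counts. Without its replicate 1, IL3-5 had 4 members called beside 5.02% of all genes, and without its replicate 2 it had 12 beside 4.75%. Without its replicate 1, IL2-5 had 9 beside 5.23%. In IL9-3-1, 15 members were called if either replicate 1 or replicate 2 was left out, beside 2.63% and 2.47% of all genes. The count was 23 in IL4-4 with replicate 2 left out (20.1% of all genes), 19 in IL6-1 with replicate 2 left out (8.78%) and 23 in IL6-2 with replicate 3 left out (7.97%). IL12-3 had between 36 and 54 called, beside 16.7% to 27.7% of all genes. The share of all genes called thus also fell in each of these. The libraries of IL6-2 held 1756911 to 3227394 reads, those of IL9-3-1 2139266 to 3485601 and those of IL12-3 2299651 to 4069655, all below the median of the ILs. The deepest libraries of IL2-5, IL3-5, IL4-4 and IL6-1, at 10246336, 7053983, 4769748 and 5727369 reads, lay above that median. The part of depth in these counts was not tested.

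Of the members called on other chromosomes, Solyc08g006860.2.1 was called in the most lines, 11. It was higher in 5, with the highest mean in IL7-4-1 (1525 ± 509 CPM, SD, n = 4, log2 fold change 0.99), and lower in 6, with the lowest in IL12-3 (335 ± 90.5 CPM, SD, n = 4, log2 fold change -1.40). The lines of other chromosomes had a median of 833 CPM. The share of all genes that reached a log2 fold change of at least 1 in size on other chromosomes is not given. Among the members 2 such combinations were called, the first of them that in IL12-3. The second was Solyc06g005060.2.1 in IL4-4, with libraries at 1315, 768, 1244 and 1525 CPM, against a median of 2543 CPM in the lines of other chromosomes than that of the gene (log2 fold change -1.07, SE 0.17, adjusted p = 1.13e-06, edgeR's quasi-likelihood test). The same gene averaged 3572 CPM in PENN and 2495 CPM in M82.

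Solyc10g080940.1.1 and Solyc01g110440.2.1 were called in 8 lines of other chromosomes each, the first lower in all 8 and the second higher in 7. Solyc04g014510.2.1 had its highest mean in IL6-1, at 1240 ± 252 CPM (SD, n = 4). In the 5 lines of its own chromosome it averaged 350 to 456 CPM, below the median of 624 CPM of the other lines, and it was called lower in 3 of the 5. In PENN libraries it had 283, 269 and 274 CPM.

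Considered over the 75 lines together, 87 of the 100 members differed among lines in a single test of all lines kept apart against merged (edgeR's quasi-likelihood test, background 70.6%). That test left out the replicate number. The count was 98 with the replicate block, and 67 without replicate 3 or without replicate 4. Shares of all genes under these settings, and of the 900 genes next in abundance, are not given. The size of the differences was small for most. The coefficient of variation of the 75 line means had a median of 9.65% for the members, 9.99% for the 900 genes next in abundance and 12.32% for all genes of at least 5 CPM. On the log2 scale the line accounted for a median of 45.9% of a member's variance over IL libraries and the replicate number for 8.54%.

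The steadiest members were Solyc01g005620.2.1, with line means between 762 and 954 CPM in lines of other chromosomes and a coefficient of variation of 4.87%, Solyc06g082870.2.1 (5.08%) and Solyc03g119040.2.1 (5.62%). Solyc06g082870.2.1 was also nearly level between the parents, at 890 ± 24.7 CPM in PENN and 893 ± 40.9 CPM in M82 (SD, n = 3 and 4). The most variable were Solyc09g007900.2.1 (31.6%), Solyc08g006860.2.1 (31.0%), Solyc04g014510.2.1 (25.7%), Solyc09g007760.2.1 (22.8%) and Solyc05g015300.2.1 (19.2%). Without the lines of the gene's own chromosome the coefficients were 24.3%, 24.5%, 24.2%, 17.9% and 19.5%, so the spread did not come from the lines of the gene's own chromosome alone.

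**Figure D5:**
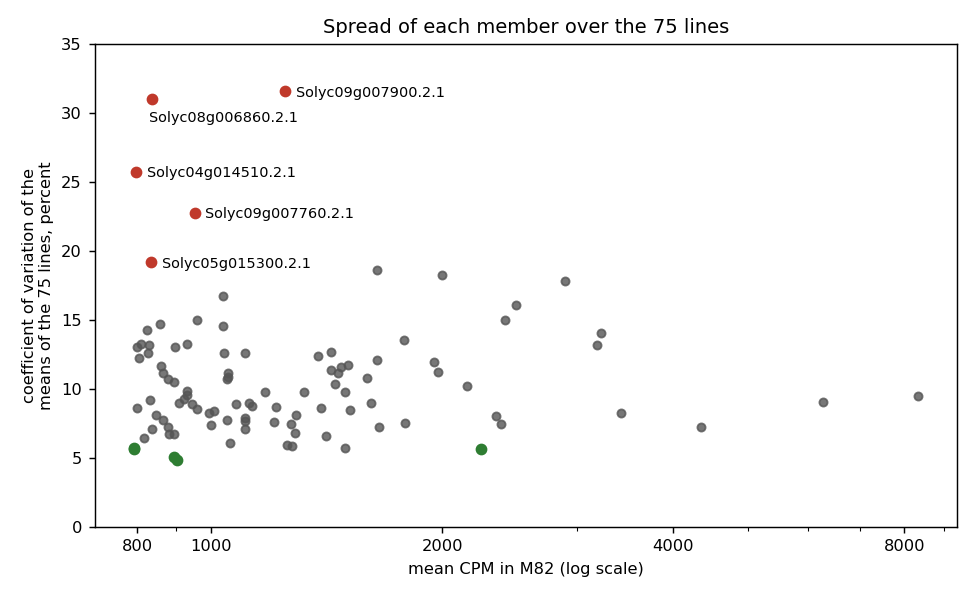
Coefficient of variation of the means of the 75 lines, in percent, against the mean CPM in M82 (log scale), for each of the 100 members, with the 5 largest in red and the 5 smallest in green. The largest values, 19.2% to 31.6%, belong to members with a mean of 1248 CPM or less in M82.

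As a description of how the members moved together, the first principal component of their standardized log2 line means held 31.7% of the variance, with 60 members weighted one way and 40 the other. IL12-3, IL6-2, IL4-4, IL3-5, IL2-5 and IL9-3-1 lay at one end of it, 6 of the 7 lines with 20 or more members called, and IL8-1-1 lay at the other end. The members share their libraries, so this component also holds whatever differed between libraries.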

How the data were processed

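RNA was measured by single-end RNA-seq in root tips of PENN, 75 ILs and M82. Reads were trimmed and then aligned by the authors with BWA to a coding-sequence reference that was S. pennellii inside an introgression and M82 elsewhere, and samtools gave the reads per gene. For both tools the version is not given in the sources used here. They deposited these counts without normalization, and CPM and tests start from them. The authors' rescaled values and their own comparisons (fold changes, p-values and labels of position) were not used. Libraries were assigned to genotypes by their labels, and 9 further per-sample columns were not used. No annotation was at hand, 0 of the 100 members could be named, and neither planned function classes nor tissue markers could be applied, so the root tip label was not checked.

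The tests used edgeR 4.0.16 in R 4.3.3, with TMM scaling (factors 0.872 to 1.17), filterByExpr (19591 of 29633 genes, all 100 members) and a quasi-likelihood fit of all 305 libraries with genotype as the only term. A test compared 2 sets of libraries kept apart or merged, with Benjamini-Hochberg adjustment within each comparison. The script was tested on simulated data. The planned tests against M82 are not reported, because the M82 libraries chose the members. Alternatives were size factors as in DESeq2 1.42.0, column totals, totals outside the members, other filters, a replicate block, DESeq2's own test, other thresholds and member sets, and leaving out each replicate. Leaving out single libraries of PENN and of 7 lines was chosen after seeing the data. Intervals are 95% Wilson intervals from scipy 1.17.1.

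Libraries of the same replicate number are paired, since the study plated and pooled for sequencing by that number. Deviations from the genotype means correlated by 0.13 over 14853 genes between libraries of the same number and by -0.04 between libraries of different numbers, and over the 100 members by 0.24 and -0.08. No 2 libraries had log2 counts that correlated above 0.992, and none was treated as a repeat.

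The members, lists and tests were chosen with earlier results of these data known. Members were named by rule: the 12 highest in M82, those called in PENN with the largest fold changes among members whose PENN and M82 libraries did not overlap (of 6 lower and 6 higher, only some are printed), the 8 called in the most lines of other chromosomes, the 5 most and 5 least variable over lines, the ranks on either side of 100 and the 6 largest calls on the own chromosome. The other members named were picked after their values were seen. Whether replicates of a line came from separate seed lots is not stated, so p-values cover the spread between these libraries within a genotype. The libraries of the reference lines were pooled, so p-values and standard errors leave out the differences among those lines.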

Additional observations from a re-analysis of the deposited data

Results flagged for a closer look

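In 3 of the 74 genotypes with 4 libraries, the summed share of reads of the 100 members was far lower in 1 library than in the others. A rate of 1 in 20 groups by chance would give 3.7 of 74, and 3 is no more than that. Over the ILs, replicate 1 had the lowest mean share, 14.1%, and the part of the replicate number in these libraries was not tested. IL12-2 replicate 1 held 13.4%, against 14.85% to 14.96% in its other libraries. IL2-4 replicate 3 held 12.9%, against 14.1% to 14.2%. IL7-5-1 replicate 1 held 13.8%, against 14.6% to 14.7%.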

How the results depend on the processing

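The count of members called in PENN against the lines stayed between 39 and 55 under the other scalings, filters, the replicate block (52) and without each replicate number. The share of all genes called ran from 34.3% with no filter on low counts (47 members) to 47.6% with the replicate block. DESeq2 on PENN and the line libraries called 45 members. The count of members was 15 with a log2 fold change of at least 1 in size, and 23 of the 50 highest or 79 of the 200 highest genes. For DESeq2 and for the combinations that follow, the share of all genes is not given. Of the member and line combinations, the replicate block called 479 beside 364, an adjusted p of at most 0.05 called 579, a log2 fold change of at least 1 left 16, and the 50 and 200 highest genes gave 190 and 686. The summed share was 7.91% in PENN and 9.89% in M82 for the 50 highest genes, 17.6% and 20.9% for the 200 highest and 13.0% and 13.2% for the 100 highest of PENN. Without each library in turn, the members called numbered 9 to 28 in IL2-5, 4 to 21 in IL3-5, 23 to 31 in IL4-4, 19 to 24 in IL6-1, 23 to 36 in IL6-2 and 15 to 30 in IL9-3-1. The cause of these changes was not tested, apart from the smaller or larger sets that give fewer or more calls by construction. Among the 50 members called in PENN, no direction reversed under the 10 settings run for them, and members that were not called had no such check. Reads per library limit the low counts of Solyc03g119360.2.1, which had 9 reads in IL3-5.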

Other observations

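Outside the 100 members, 3 genes were among the highest 100 in PENN and stood below rank 1000 in M82. The one with the largest ratio, Solyc08g076880.2.1, had 829, 849 and 653 CPM in PENN libraries and 38.7, 27.3, 29.5 and 45.5 CPM in M82 libraries. Solyc04g014320.1.1 had 755, 1111 and 760 CPM in PENN libraries and 56.5, 25.2, 49.2 and 56.5 CPM in M82 libraries. Both were picked for their high level in PENN, so no test is given.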
